A study of Mus musculus with 8 samples.

Results

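Described here are 10 of the 16323 genes tested. They were chosen by their measured signals in these same arrays, which wild-type EBF1 and the substituted protein EBF1-H240A shifted to opposite sides of the empty-vector control. They are Clec10a, Apof, Sh3tc1, Ypel2, Tubb6, Ccnb1ip1, Ccnjl, Lpcat2, Pgap1 and Gpr146. Every probe whose name in the scanner files was a current symbol or a synonym of one of them was read on all 8 arrays. The cells were c-Kit+ cells of C57Bl/6 Ebf1-/- fetal liver, grown on OP9 stromal feeder cells with interleukin 7 at 5 ng/ml and both Flt3 ligand and stem cell factor at 10 ng/ml. They received a pMys retrovirus that expresses GFP from an internal ribosome entry site together with wild-type EBF1 (Ebf1wt, n = 3 arrays), with EBF1-H240A (Ebf1-H240A, n = 3) or with no protein (Empty, n = 2). GFP+ cells were sorted 36 h after transduction, and all groups thus share the deletion of Ebf1, the feeder cells, the cytokines and the vector backbone. The protein came from a retrovirus and not from the Ebf1 locus, and the amount of it per cell was not analysed here.

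EBF1 is a transcription factor that B-lymphocyte development requires, and it binds DNA as a dimer at a palindromic site. In EBF1-H240A an alanine replaces a histidine, a substitution known to impair its contact with CNOT3, which belongs to the CCR4-NOT complex that trims the tails of mRNAs. The 10 genes belong to no common pathway. They encode a lectin, a secreted apolipoprotein, an adaptor-like protein, a zinc-binding protein, a tubulin, a ubiquitin ligase, a cyclin relative, 2 enzymes of membrane lipids and an orphan receptor.

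Of the 10 genes, 3 were higher with Ebf1wt and lower with Ebf1-H240A than with Empty, namely Clec10a, Apof and Sh3tc1. The other 7 were lower with Ebf1wt and higher with Ebf1-H240A. For all 10, both Empty arrays lay between the 3 Ebf1wt and the 3 Ebf1-H240A arrays with no overlap of any 2 groups. This ordering was found for 162 of the 16323 genes tested (0.992%). Because it is what the genes were chosen for, their levels and differences are given as a description and carry no test. The signal is the scanner intensity on a log2 scale after every array was brought to the same 75th percentile, so that a difference of 1 is a 2-fold difference. Signals of different probes are not comparable with each other. In these bulk samples, fewer expressing cells and less RNA per cell cannot be told apart.

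**Figure D1:**
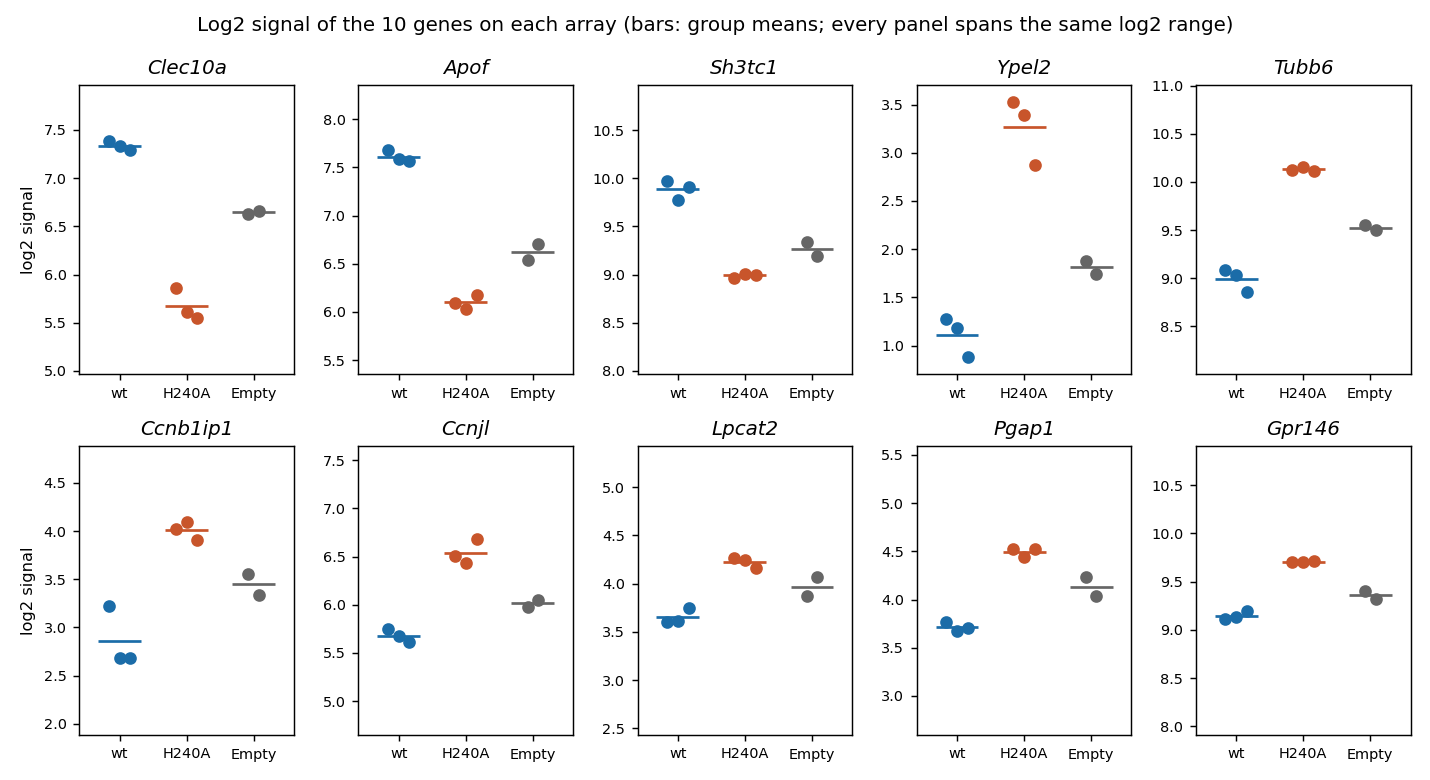
Log2 signal (y axis) of the probe that stands for each of the 10 genes on the 3 Ebf1wt, 3 Ebf1-H240A and 2 Empty arrays (x axis, points; bars are group means). In every panel the Empty points lie between the other groups, and the Ebf1wt points are on top only for Clec10a, Apof and Sh3tc1.

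Clec10a encodes a C-type lectin of macrophages and dendritic cells that binds galactose-type sugars. Its log2 signal was 7.38, 7.33 and 7.29 with Ebf1wt, 5.86, 5.61 and 5.55 with Ebf1-H240A, and 6.63 and 6.66 with Empty. The widest spread within a group, among the Ebf1-H240A arrays, was 0.31, smaller than the gap of 0.63 between the Empty and the Ebf1wt arrays and that of 0.77 between the Empty and the Ebf1-H240A arrays. Against Empty, Clec10a was 0.69 ± 0.10 (SE) higher with Ebf1wt, a 1.61-fold difference, and its difference with Ebf1-H240A was -0.97 ± 0.10, so that Empty was 1.96-fold above Ebf1-H240A. Between the proteins, Ebf1-H240A minus Ebf1wt was -1.66 ± 0.09. The probe lies on the plus strand of chromosome 11 at 69984232 to 69984291 in mm9.

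Apof encodes apolipoprotein F, a secreted protein of lipoprotein particles made mainly by the liver. It read 7.68, 7.59 and 7.57 with Ebf1wt, 6.09, 6.03 and 6.18 with Ebf1-H240A, and 6.54 and 6.70 with Empty. The Ebf1wt arrays stood at least 0.86 above the Empty arrays and the Ebf1-H240A arrays at least 0.37 below them, while no group spread over more than 0.16. The difference from Empty was 0.99 ± 0.08 with Ebf1wt (1.98-fold) and -0.52 ± 0.08 with Ebf1-H240A, and Ebf1-H240A minus Ebf1wt was -1.51 ± 0.07. The probe lies on the plus strand of chromosome 10 at 127706973 to 127707032 in mm9.

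Sh3tc1 encodes a protein with SH3 and tetratricopeptide repeat domains, which bind other proteins. On the log2 scale it read 9.97, 9.78 and 9.91 with Ebf1wt, 8.96, 9.01 and 9.001 with Ebf1-H240A, and 9.34 and 9.19 with Empty. The gap between the Empty and Ebf1-H240A arrays, 0.18, was about as wide as the largest spread within a group, 0.20, whereas the Ebf1wt arrays stood 0.44 away from Empty. Its differences from Empty were 0.62 ± 0.08 with Ebf1wt and -0.27 ± 0.08 with Ebf1-H240A. The probe lies on the minus strand of chromosome 5 at 36039834 to 36039892 in mm9.

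Tubb6 encodes a beta tubulin, a building block of microtubules. Its log2 signal was 9.09, 9.04 and 8.85 with Ebf1wt, 10.12, 10.16 and 10.12 with Ebf1-H240A, and 9.55 and 9.50 with Empty. Both gaps to the Empty arrays, 0.41 for Ebf1wt and 0.57 for Ebf1-H240A, exceeded the largest spread within a group, 0.23. The differences from Empty were -0.53 ± 0.08 with Ebf1wt and 0.61 ± 0.08 with Ebf1-H240A, a near mirror image, and the proteins differed by 1.14 ± 0.07 or 2.20-fold. This probe lies on the plus strand of chromosome 18 at 67562310 to 67562369 in mm9. A second probe that the files also name Tubb6, on the minus strand at 67560678 to 67560737, read 5.39, 5.82 and 5.67 with Ebf1wt, 6.04, 6.26 and 6.02 with Ebf1-H240A, and 6.25 and 5.86 with Empty. On that probe the Ebf1-H240A and Empty arrays overlapped, with a mean difference of 0.05, while the difference of Ebf1wt from Empty was -0.43.

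Ypel2 encodes a member of the Yippee-like family of small zinc-binding proteins. Its probe was well above background only on the 3 Ebf1-H240A arrays, where it read 3.52, 3.39 and 2.88. On the other arrays it was not well above background, at 1.27, 1.18 and 0.88 with Ebf1wt and 1.88 and 1.74 with Empty. With these values Ypel2 was at least 2.74-fold higher with Ebf1-H240A than with Empty, and at least 2.19-fold higher with Ebf1-H240A than with Ebf1wt, but these bounds do not hold under every processing. With the normexp background correction the log2 difference of Ebf1-H240A was 0.26 from Empty and 0.16 from Ebf1wt, and it was 0.35 from Empty and 0.29 from Ebf1wt in the deposited value table. The measured difference of Ebf1wt from Empty, -0.70 ± 0.21, is one between signals not well above background and gives no fold. It became 0.10 with the normexp correction and 0.063 in the value table. The probe lies on the minus strand of chromosome 11 at 86805756 to 86805815 in mm9.

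Ccnb1ip1, also called Hei10, encodes a ubiquitin ligase of meiotic crossing over that in human cells interacts with cyclin B1. Its log2 signal was 3.23, 2.68 and 2.68 with Ebf1wt, 4.02, 4.09 and 3.91 with Ebf1-H240A, and 3.56 and 3.33 with Empty. It was well above background on 1 of the 3 Ebf1wt arrays, on all 3 Ebf1-H240A arrays and on both Empty arrays. The gap of 0.11 between the Ebf1wt and Empty arrays was smaller than the spread of 0.55 among the Ebf1wt arrays. The differences from Empty were -0.58 ± 0.18 with Ebf1wt, which became 0.00092 with the normexp correction, and 0.56 ± 0.18 with Ebf1-H240A, which became 0.20 with the normexp correction and 0.081 in the value table. The probe lies on the minus strand of chromosome 14 at 51409317 to 51409376 in mm9.

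Ccnjl encodes cyclin J-like, a relative of the cyclins. It read 5.74, 5.68 and 5.61 with Ebf1wt, 6.50, 6.43 and 6.68 with Ebf1-H240A, and 5.98 and 6.05 with Empty. The Empty arrays stood 0.24 from the Ebf1wt arrays and 0.38 from the Ebf1-H240A arrays, against a largest spread within a group of 0.25. Its differences from Empty were -0.34 ± 0.09 with Ebf1wt and 0.52 ± 0.09 with Ebf1-H240A, and the proteins differed by 0.86 ± 0.08. The probe lies on the plus strand of chromosome 11 at 43399495 to 43399554 in mm9.

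Lpcat2 and Pgap1 encode enzymes of membrane lipids. Lpcat2 makes phosphatidylcholine and platelet-activating factor in inflammatory cells, and Pgap1 removes an acyl chain from the inositol of GPI anchors, the lipids that hold many proteins to the cell surface. The log2 signal of Lpcat2 was 3.60, 3.61 and 3.75 with Ebf1wt, 4.26, 4.25 and 4.17 with Ebf1-H240A, and 3.87 and 4.07 with Empty. Its Empty arrays were 0.20 apart, wider than the gaps of 0.12 to the Ebf1wt and 0.098 to the Ebf1-H240A arrays, so that its place on either side of Empty was less clear than the difference between the proteins, 0.57 ± 0.08. Its differences from Empty were -0.32 ± 0.09 with Ebf1wt, which became 0.0056 with the normexp correction, and 0.26 ± 0.09 with Ebf1-H240A, which became 0.16 with the normexp correction and 0.093 in the value table. The log2 signal of Pgap1 was 3.77, 3.67 and 3.71 with Ebf1wt, 4.52, 4.44 and 4.52 with Ebf1-H240A, and 4.23 and 4.03 with Empty. The Pgap1 groups were separated by gaps of 0.27 for Ebf1wt and 0.21 for Ebf1-H240A, just above the 0.20 between its Empty arrays. Its differences from Empty were -0.42 ± 0.08 with Ebf1wt and 0.36 ± 0.08 with Ebf1-H240A. They became -0.0087 with Ebf1wt and 0.22 with Ebf1-H240A under the normexp correction, and -0.34 with Ebf1wt and 0.14 with Ebf1-H240A in the value table. The other 2 Pgap1 probes were not well above background on any array. In mm9 the Lpcat2 probe lies on the plus strand of chromosome 8 at 95442241 to 95442300, and the Pgap1 probe on the minus strand of chromosome 1 at 54532929 to 54532988.

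Gpr146 encodes an orphan G protein coupled receptor that in mouse hepatocytes takes part in the control of plasma cholesterol. Its log2 signal was 9.11, 9.14 and 9.19 with Ebf1wt, 9.71, 9.70 and 9.71 with Ebf1-H240A, and 9.40 and 9.32 with Empty. The differences were small but so was the spread, at most 0.080 within a group against gaps of 0.13 for Ebf1wt and 0.30 for Ebf1-H240A. From Empty it differed by -0.21 ± 0.06 with Ebf1wt and 0.35 ± 0.06 with Ebf1-H240A, which were 0.56 ± 0.05 apart. A dim second probe, which the files name D830046C22Rik and the gene table assigns to Gpr146 as a synonym, was well above background on 4 of the 8 arrays. It read 2.95, 3.18 and 2.04 with Ebf1wt, 2.998, 2.56 and 3.40 with Ebf1-H240A, and 2.22 and 2.19 with Empty, so that the 3 groups did not fall in the order of the first probe. Averaged over both probes, the difference of Ebf1wt from Empty was 0.15. The brighter probe lies at 139869523 to 139869582 and the dim one at 139855229 to 139855288 on chromosome 5 of mm9, both on the plus strand.

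Promoter windows, from 250 bases before to 50 after each annotated start in RefSeq (GRCm38.p6), were on hand for 7 of the 10 genes, 10 windows in all; none was used for Clec10a, Apof or Tubb6. The palindrome TCCCNNGGGA, the textbook form of the EBF1 site, was searched on both strands and was in 0 of the 10 windows, against 0.904% of all 32851 windows. Its inner part CCCNNGGG, which reads alike on both strands and lies within every such palindrome, was in 3 of the 10 windows, against 13.7% of all windows. It was found once for Ccnjl and in 2 of the 3 windows of Gpr146. The shorter TTCCC, which can share bases with the others, was in 7 of the 10 windows on either strand, against 62.7% of all windows. The 250 bases upstream are printed for the 3 windows that hold the inner part, with it in capitals, and for the window of Sh3tc1 that begins farthest upstream, with TTCCC on either strand in capitals, because Sh3tc1 is the only gene higher with Ebf1wt that has a window. A match of letters is a description and shows no binding.
Ccnjl, chr11:43528499-43528748, plus strand: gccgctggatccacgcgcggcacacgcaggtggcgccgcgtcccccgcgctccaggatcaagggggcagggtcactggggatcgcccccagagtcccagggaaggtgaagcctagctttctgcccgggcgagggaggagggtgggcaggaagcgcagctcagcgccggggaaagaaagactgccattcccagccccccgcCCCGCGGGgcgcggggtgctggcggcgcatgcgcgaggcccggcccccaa
Gpr146, chr5:139380389-139380638, plus strand: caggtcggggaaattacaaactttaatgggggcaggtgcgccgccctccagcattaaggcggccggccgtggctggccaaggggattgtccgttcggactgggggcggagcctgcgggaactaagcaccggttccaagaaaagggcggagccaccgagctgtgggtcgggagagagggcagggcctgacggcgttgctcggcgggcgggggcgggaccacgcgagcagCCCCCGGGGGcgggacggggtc
Gpr146, chr5:139389654-139389903, plus strand: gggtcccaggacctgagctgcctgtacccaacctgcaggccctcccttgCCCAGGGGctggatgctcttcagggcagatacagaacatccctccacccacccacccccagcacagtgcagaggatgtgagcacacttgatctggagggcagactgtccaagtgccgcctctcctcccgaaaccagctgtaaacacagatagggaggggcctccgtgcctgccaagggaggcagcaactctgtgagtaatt
Sh3tc1, chr5:35739988-35740237, minus strand: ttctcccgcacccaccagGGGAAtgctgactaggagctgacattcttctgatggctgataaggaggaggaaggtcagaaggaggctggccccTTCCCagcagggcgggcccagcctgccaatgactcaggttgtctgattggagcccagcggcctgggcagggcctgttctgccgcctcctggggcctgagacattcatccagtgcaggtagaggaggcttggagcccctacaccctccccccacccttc
In the Ccnjl window the inner part begins 50 bases before the start, and in the first Gpr146 window 3 overlapping copies begin 22, 21 and 20 bases before it.

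Across all genes tested, limma called 17.2% higher and 21.2% lower with Ebf1wt than with Empty at an adjusted p under 0.05, and 21.6% higher and 23.0% lower with Ebf1-H240A. Of the 10 genes, 3 were called higher and 7 lower with Ebf1wt, and 7 higher and 3 lower with Ebf1-H240A. With Ebf1-H240A against Ebf1wt, 7 of the 10 were called higher, against 3.64% of all genes, and 3 lower, against 2.73%. Since the same contrasts chose the genes, nothing is read from these counts. Only 19 genes (0.116% of those tested) were called in both comparisons with Empty and in opposite directions, and the 10 are among them. Both comparisons use the same 2 Empty arrays. The median difference of all genes was -0.04 for Ebf1wt against Empty, -0.0026 for Ebf1-H240A against Empty and 0.02 for Ebf1-H240A against Ebf1wt.

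The sizes of the shifts varied among the genes. For the 3 genes higher with Ebf1wt, the difference from Empty ranged from 0.62 to 0.99 with Ebf1wt and from -0.97 to -0.27 with Ebf1-H240A. For the others it ranged from -0.58 to -0.21 with Ebf1wt and from 0.26 to 0.61 with Ebf1-H240A, leaving out Ypel2, which was well above background in 1 group only. The shift with Ebf1-H240A was the larger for 1 of the 3 and 3 of these 6, so neither protein had the larger shift throughout. Gpr146 had the smallest lesser shift of all 19 genes (0.21), and Cd93, the nearest gene that is not among the 10, had 0.24. The 10 were not the 10 largest of the 19, which are headed by Rag1.

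**Figure D2:**
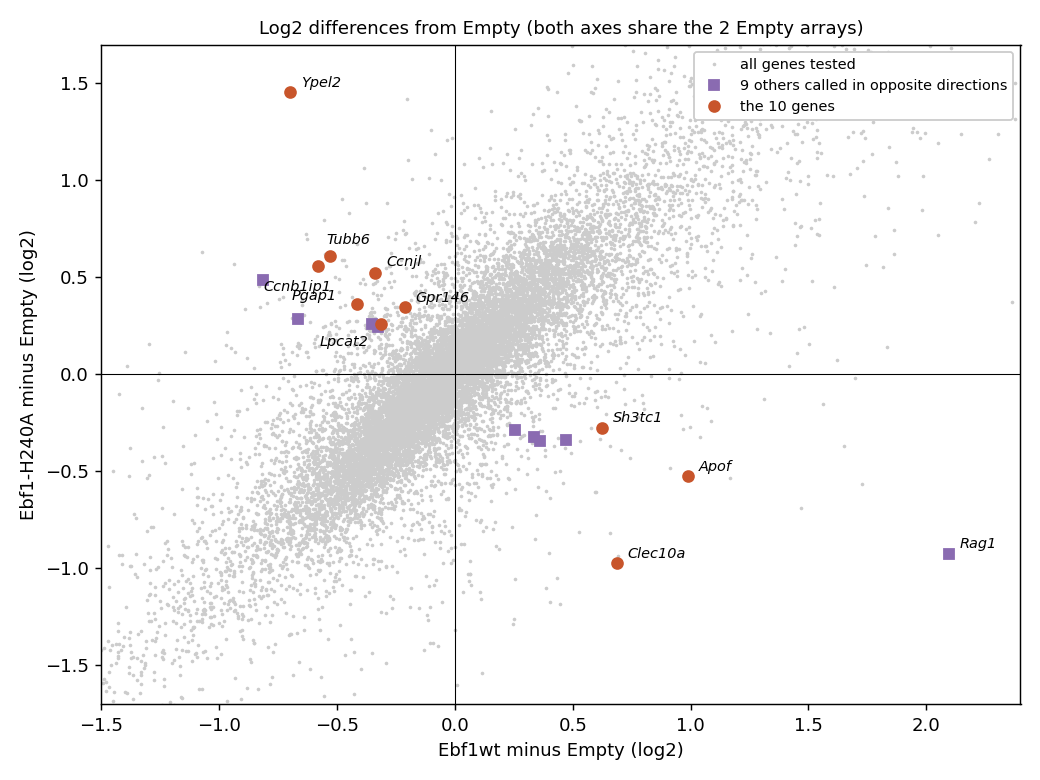
Difference of Ebf1wt from Empty (x axis, log2) against that of Ebf1-H240A from Empty (y axis, log2) for all genes tested in the range drawn (grey), the 10 genes (orange circles) and the 9 other genes called in opposite directions (purple squares). The axes share the Empty arrays; the 10 genes lie in the upper left and lower right corners of the cross, with Clec10a and Apof far from the centre and Gpr146 and Lpcat2 nearest. The place of Ypel2 rests on Ebf1wt and Empty signals not well above background.

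Of the 9 other genes called in opposite directions, 5 were higher and 4 lower with Ebf1wt. Rag1, a subunit of the recombinase that rearranges antigen receptor genes, differed from Empty by 2.10 ± 0.24 with Ebf1wt and -0.92 ± 0.24 with Ebf1-H240A, but the second of these was called in 10 of 20 alternative settings. Necab3, which encodes a calcium-binding protein, differed by 0.36 ± 0.09 with Ebf1wt (called in 11 of 20 settings) and -0.34 ± 0.09 with Ebf1-H240A. For Ldlrad4, an inhibitor of TGF-beta signalling, the values were 0.47 ± 0.09 with Ebf1wt and -0.34 ± 0.09 with Ebf1-H240A (called in 10 of 20 settings). Btla, an inhibitory receptor of lymphocytes, differed by -0.81 ± 0.09 with Ebf1wt and 0.49 ± 0.09 with Ebf1-H240A. Lyl1, a transcription factor of blood stem and progenitor cells, differed by -0.66 ± 0.09 with Ebf1wt and 0.29 ± 0.09 with Ebf1-H240A (called in 8 of 20 settings). Tnfrsf21, a death receptor, differed by -0.35 ± 0.08 with Ebf1wt and 0.26 ± 0.08 with Ebf1-H240A (called in 4 of 20 settings).

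For each of the 10, the gene with the most similar course over the 8 arrays was found by the root mean square (RMS) difference of mean-centred log2 signals. Sh3tc1 and Ldlrad4 were the closest pair (RMS 0.070), followed by Gpr146 with Cd93, a surface glycoprotein of early progenitors (0.077), Pgap1 with Tnfrsf21 (0.095) and Lpcat2 with Tle6, a relative of the Groucho corepressors (0.096). Cd93 was also nearest to Ccnjl (0.144), Btla to Tubb6 (0.168) and the kinase relative Alpk3 to Ccnb1ip1 (0.180). The RMS tends to grow with the size of a gene's own shift. Apof was nearest to Zap70, a kinase of T cell receptor signalling (0.254), Clec10a to Rtkn2 (0.305) and Ypel2 to Hrc (0.308). Zap70 differed from Empty by 0.74 ± 0.18 with Ebf1wt, which was called (adjusted p = 0.0173), and by -0.43 ± 0.18 with Ebf1-H240A, which was not (adjusted p = 0.0946), while Rtkn2 differed from Empty mainly with Ebf1-H240A (0.17 with Ebf1wt and -0.88 with Ebf1-H240A).

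The arrays were hybridised on 2 slides, each of which held arrays of all 3 groups, so every difference was also taken within each slide, where a group has 1 or 2 arrays. Since no groups overlapped for the 10 genes, the signs within a slide follow from their choice, and only the sizes are described. Clec10a differed by 0.70 with Ebf1wt and -0.90 with Ebf1-H240A within slide 1, and by 0.68 with Ebf1wt and -1.11 with Ebf1-H240A within slide 2. Tubb6 differed by -0.51 with Ebf1wt and 0.59 with Ebf1-H240A within slide 1, and by -0.53 with Ebf1wt and 0.62 with Ebf1-H240A within slide 2. The least even were Ccnb1ip1, whose difference with Ebf1wt was -0.87 within slide 1 and -0.38 within slide 2, and Lpcat2, whose difference with Ebf1-H240A was 0.39 within slide 1 and 0.098 within slide 2.

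**Figure D3:**
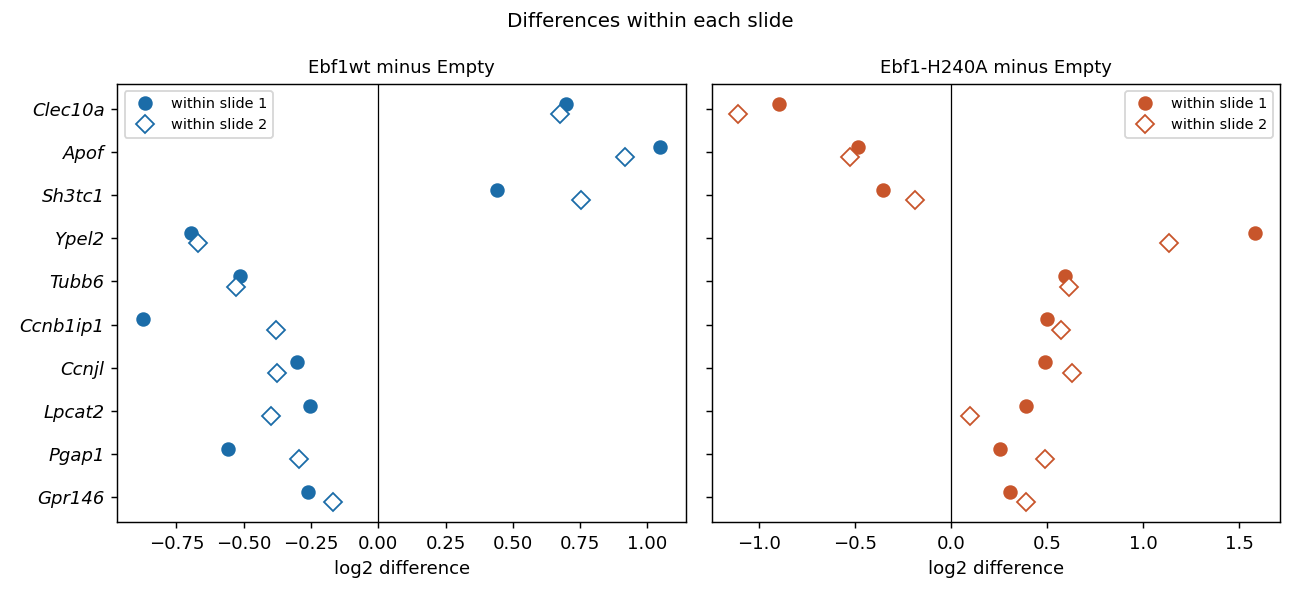
Log2 difference from Empty (x axis) of each of the 10 genes (y axis) with Ebf1wt (left) and Ebf1-H240A (right), within slide 1 (filled circles) and slide 2 (open diamonds). The side of 0 on which a point lies follows from how the genes were chosen; the slides gave like sizes for Clec10a and Tubb6, and the Lpcat2 point of slide 2 with Ebf1-H240A, at 0.098, is nearest to 0.

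The genes differed in how far their placing on both sides of Empty held under 17 other settings that use all 3 groups and both slides. Clec10a and Tubb6 were called in both comparisons, in opposite directions, under 17 of 17 settings, Apof under 16 and Pgap1 under 14. Ccnjl was so called under 10, Sh3tc1 and Ypel2 under 9 each, Gpr146 under 8, Lpcat2 under 4 and Ccnb1ip1 under 3, with Ypel2 and Ccnb1ip1 measured in 16 of the 17. The difference between the proteins was called at least as often, under all 17 for Clec10a, Apof, Sh3tc1, Tubb6 and Ccnjl and under 14 to 16 for the other 5. For genes chosen for opposite shifts, this difference spans both shifts and compares 3 arrays with 3. Nothing is read from its being called at least as often. The number of genes of the whole array called in opposite directions was 4 with the normexp correction, 5 without Empty 1 and 7 without Empty 2, in place of 19. Of the 10 genes, 3, 4 and 4 remained called in those settings. In these counts the signs are those the genes were chosen for, and leaving out an array cannot turn them. The normexp correction also brought the difference of Clec10a from Empty to 0.45 with Ebf1wt and -0.55 with Ebf1-H240A, that of Apof with Ebf1-H240A to -0.19, and that of Ccnjl to -0.20 with Ebf1wt and 0.31 with Ebf1-H240A. With the normexp correction the difference of Ebf1wt from Empty was within 0.10 of 0 for Ypel2, Ccnb1ip1, Lpcat2 and Pgap1.

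**Figure D4:**
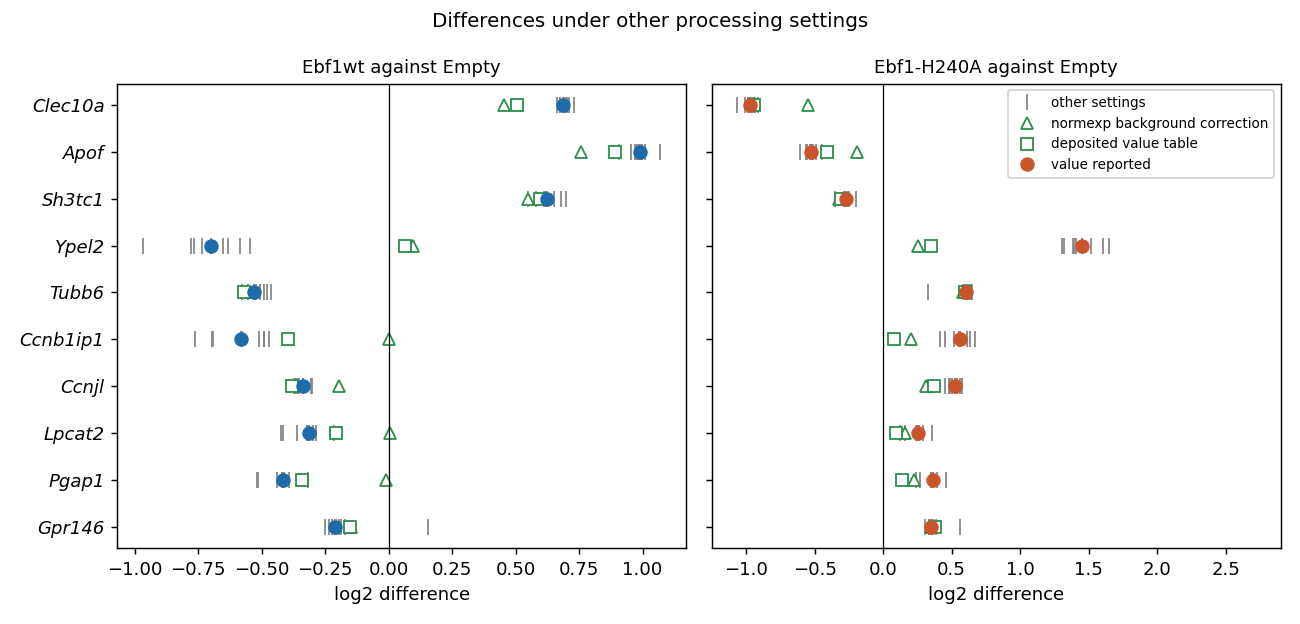
Log2 difference from Empty (x axis) of each of the 10 genes (y axis) with Ebf1wt (left) and Ebf1-H240A (right): the value reported (filled circles), the normexp background correction (triangles), the deposited value table (squares) and the other 15 settings (ticks). Clec10a, Apof, Sh3tc1, Tubb6 and Ccnjl stay on their side of 0 throughout, while Ypel2, Ccnb1ip1, Lpcat2 and Gpr146 each have a value on the other side with Ebf1wt.

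Of 20 neighbours measured, the nearest gene on either side of each of the 10 on the chromosome, 0 were called in opposite directions, a count that says little of 20 genes when the share of all genes is 0.116%. With Ebf1wt against Empty, limma called 5 of them higher and 3 lower, and with Ebf1-H240A against Empty 8 higher and 3 lower. The shares of all genes were 17.2% higher and 21.2% lower with Ebf1wt, and 21.6% higher and 23.0% lower with Ebf1-H240A. The neighbours named here were chosen after their values were seen. Cidea, a lipid droplet gene next to Tubb6, was well above background on neither Empty array. It rose with both proteins, at least 82.9-fold with Ebf1wt (adjusted p = 1.36e-06) and at least 138-fold with Ebf1-H240A (adjusted p = 7.85e-07). These bounds do not hold under every processing. Over 19 alternative settings the log2 difference of Cidea ranged from 2.47 to 7.85 with Ebf1wt and from 3.10 to 8.72 with Ebf1-H240A. Slc16a11, a transporter gene next to Clec10a, also rose with both, by 3.69 ± 0.21 with Ebf1wt (adjusted p = 3.64e-05) and 4.30 ± 0.21 with Ebf1-H240A (adjusted p = 1.49e-05), although 1 of its 2 Empty arrays was not well above background. Its size depended on the processing: over 19 alternative settings it ranged from 1.085 to 4.08 with Ebf1wt and from 1.51 to 4.56 with Ebf1-H240A. Mgl2, the close relative of Clec10a beside it, differed from Empty by 0.32 ± 0.45 with Ebf1wt and 0.02 ± 0.45 with Ebf1-H240A, neither called (adjusted p = 0.626 with Ebf1wt and 0.982 with Ebf1-H240A).

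Between the proteins, 3 neighbours were called higher and 2 lower with Ebf1-H240A than with Ebf1wt, against 3.64% and 2.73% of all genes. Htra3, a protease gene next to Sh3tc1, had mean log2 signals of 7.49 with Ebf1-H240A and 9.78 with Ebf1wt, a difference of -2.30 ± 0.16 (adjusted p = 0.00126), on the same side as that of Sh3tc1. C130050O18Rik, next to Gpr146, averaged 9.09 with Ebf1-H240A and 7.58 with Ebf1wt, a difference of 1.51 ± 0.10 (adjusted p = 0.00126), on the same side as that of Gpr146. Unlike the genes beside them, both were above Empty with either protein: Htra3 by 2.91 with Ebf1wt and 0.61 with Ebf1-H240A, and C130050O18Rik by 0.37 with Ebf1wt and 1.87 with Ebf1-H240A. The smaller of these differences is the less firm for each gene, with Htra3 against Empty called in 12 of 20 settings with Ebf1-H240A and C130050O18Rik in 6 of 20 with Ebf1wt. Apon, an apolipoprotein gene beside Apof, was called lower with Ebf1-H240A than with Ebf1wt (-0.69 ± 0.14, adjusted p = 0.0379), a call kept in 5 of 20 settings.

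Of 149 measured relatives by family or pathway, in 9 lists, 0 were called in opposite directions, which again says little beside the 0.116% of all genes. With Ebf1-H240A against Ebf1wt, 7 of the 149 were called higher and 4 lower, near the shares of all genes (3.64% and 2.73%). Of 14 C-type lectin and macrophage lectin genes, 3 YPEL family genes, 9 meiotic crossover genes and 27 genes of GPI anchor synthesis, 0 were called between the proteins, and the medians of these lists were 0.16, 0.11, 0.04 and 0.00 (all genes, 0.02). Within the YPEL family, Ypel3 rose with both proteins, by 1.05 ± 0.06 with Ebf1wt (adjusted p = 5.03e-05) and 1.30 ± 0.06 with Ebf1-H240A (adjusted p = 1.58e-05). Ypel1 fell with both, with differences of -0.71 ± 0.09 with Ebf1wt (adjusted p = 0.00138) and -0.84 ± 0.09 with Ebf1-H240A (adjusted p = 0.000519). Ypel1 and Ypel3 were chosen after their values were seen.

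Among 20 tubulin and tubulin folding genes, 1 was called between the proteins, Tubb3, which encodes a beta tubulin best known from neurons. It averaged 7.27 with Ebf1-H240A and 9.30 with Ebf1wt, a difference of -2.02 ± 0.18 (adjusted p = 0.00297), the opposite side from Tubb6. Against Empty, Tubb3 rose by 1.65 ± 0.20 with Ebf1wt (adjusted p = 0.00102) and differed by -0.37 ± 0.20 with Ebf1-H240A, which was not called (adjusted p = 0.186). Of 20 lysophospholipid acyltransferase and platelet-activating factor genes, 2 were called higher with Ebf1-H240A than with Ebf1wt. One was Agpat4, an acyltransferase of phosphatidic acid synthesis, with means of 11.14 with Ebf1-H240A and 10.26 with Ebf1wt and a difference of 0.88 ± 0.08 (adjusted p = 0.00264). Gpr155 led the 21 orphan and lipid-sensing receptors, of which 2 were called higher and 1 lower, with means of 8.05 with Ebf1-H240A and 7.01 with Ebf1wt (1.04 ± 0.06, adjusted p = 0.000702). Abca1, a cholesterol exporter, led the 15 apolipoprotein and lipoprotein receptor genes, of which 2 were called higher, with a difference of 0.78 ± 0.10 (adjusted p = 0.00994). Unlike Lpcat2, Gpr146 and Apof, these last 3 genes rose with both proteins against Empty. The list of cyclins left out the D and E types. Of the 18 other cyclins measured, Ccnt2, a partner of a kinase of transcription elongation, was called higher (0.80 ± 0.16, adjusted p = 0.0318, called in 7 of 20 settings). Ccna2, a cyclin of S phase and mitosis, was called lower (-0.38 ± 0.07, adjusted p = 0.0274, called in 9 of 20 settings). The same list of 20 genes held Cntrob, a centriole gene and no cyclin, which was also called lower (-0.39 ± 0.07, adjusted p = 0.0277, called in 5 of 20 settings). Ccnt2 and Cntrob were named after their values were seen.

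The share of probes well above background ranged from 54.6% to 59.7% over the arrays, those of 1 group correlated across genes at r = 0.991 to 0.995, and 0 spots were saturated. Of 12 markers of stem and progenitor cells, the labelled cell type, 10 were well above background on all 8 arrays and Gata2 on none. Summed on the linear scale, they came to 22812 to 24221 with Ebf1wt, 26354 to 27848 with Ebf1-H240A and 37963 to 39333 with Empty. The 14 macrophage and dendritic cell markers, a class of cells in which Clec10a is known, summed to 19401 to 25589 with Ebf1wt, 29527 to 39553 with Ebf1-H240A and 24182 to 29108 with Empty, with C1qa, Cd209a and Mertk well above background on no array. Lyz2 alone made up 67.8% to 83.5% of the signal of the detected markers, and without it they summed to 4897 to 5399 with Ebf1wt, 5546 to 7205 with Ebf1-H240A and 7794 to 8606 with Empty. Against Empty, 1 of the 11 detected was called higher and 7 lower with Ebf1wt, and 2 higher and 7 lower with Ebf1-H240A. The 10 measured hepatocyte markers, of a cell that makes Apof, summed to 205 to 236 with Ebf1wt, 102 to 110 with Ebf1-H240A and 602 to 607 with Empty. Ahsg carried most of that sum, and 7 of the 10, among them Alb, Afp and Apoa1, were well above background on no array. Without Ahsg the detected markers summed to 35.0 to 40.4 with Ebf1wt, 38.6 to 41.4 with Ebf1-H240A and 66.6 to 72.6 with Empty. Of the 3 detected, 2 were called lower with Ebf1wt than with Empty, and 1 was called higher and 2 lower with Ebf1-H240A. Hnf4a, well above background on 3 arrays, went against the sum, by 0.22 with Ebf1wt and 0.94 with Ebf1-H240A. The 12 stromal markers, which the OP9 feeder cells could contribute, summed to 16395 to 21032 with Ebf1wt, 13037 to 16342 with Ebf1-H240A and 13964 to 14543 with Empty, with Lum and Postn well above background on no array. Thy1, which lymphoid cells also express, made up 84.6% to 94.6% of the detected signal, and without it the sums were 1598 to 1841 with Ebf1wt, 2004 to 2192 with Ebf1-H240A and 754 to 788 with Empty. The 5 erythroid markers well above background on some array summed to 1205 to 1338 with Ebf1wt, 841 to 927 with Ebf1-H240A and 8294 to 9240 with Empty. Hbb-bt made up 78.0% to 99.5% of that signal, and without it Empty was the lowest group. The sums were then 265 to 286 with Ebf1wt, 123 to 198 with Ebf1-H240A and 46.9 to 51.4 with Empty. With either protein Alas2, well above background on 6 of the 8 arrays, carried most of this sum. Its measured difference from Empty was 6.95 with Ebf1wt and 6.06 with Ebf1-H240A. Slc4a1 differed by 0.54 with Ebf1wt and 0.49 with Ebf1-H240A. Epor was lower than with Empty (-0.78 with Ebf1wt, -0.92 with Ebf1-H240A), as was the dim Hba-a1 (-1.62 with Ebf1wt, -1.24 with Ebf1-H240A). Of the 4 erythroid markers tested, 1 was called higher and 2 lower than with Empty, with either protein. The part of any of these cells in the differences of the 10 genes was not tested.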

How the data were processed

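RNA from sorted cells was measured on 8 one-colour Agilent arrays. Per the submitters' processing notes the scans were read with Agilent Feature Extraction 10.5.1.1, and per the file headers the annotation is that of mm9, the processed signal is a background-corrected linear intensity, and other columns hold flags. The deposited value table holds log2 values; the sources used here do not give their normalization or centring. Its column medians were 4.90 to 4.93, and it served as an alternative.

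Processed intensities of the deposited files were scaled to a common 75th percentile per array, floored at 1 and put on the log2 scale. The remaining non-outlier spots were averaged per probe. Of 41174 probes, 25025 passed the filter of being well above background on 2 or more of the 8 arrays, and 24 of these lacked a value on some array and were left out. The kept probe with the highest mean stood for a gene, which gave 16323 genes; names came from the scanner files and a RefSeq gene table (GRCm38.p6). All 10 genes passed this filter, Ypel2 through the Ebf1-H240A arrays alone.

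Groups were compared with lmFit and eBayes of limma 3.58.1, run in R 4.3.3, on all 8 arrays without covariates, with Benjamini-Hochberg adjustment over all genes at 0.05; each SE comes from this fit, which was tested on simulated data. Where a probe was well above background on no array of a group, a fold is a bound, written "at least". For it, the bright group's mean was set against the mean of, per array, whichever was higher, the dim signal itself or the lowest signal well above background. Where only some arrays of a group were well above background, the difference is given as measured. The labels do not say whether replicates came from separate cultures, so the spread that p-values measure may be technical, and the number of arrays limits the precision. Alternatives were the normexp background correction (offset 50), quantile normalization, the deposited value table, other filters on dim probes, the mean over probes, outlier spots kept, slide or replicate number as a block, each slide alone, the 2 groups compared alone, and leaving out each array.

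The 10 genes, the lists of relatives and markers and the rules for naming other genes were chosen with earlier results of these data known. Named were the 10 genes, for each the gene with the closest course over the arrays, in each direction the 3 other oppositely called genes with the largest lesser shift, and for each list of relatives the called gene with the smallest adjusted p between the proteins. One listed relative of Sh3tc1, Sh3tc2, was not among the genes tested. Erythroid markers were summed over those well above background on some array.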

Additional observations from a re-analysis of the deposited data

How the results depend on the processing

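Leaving out arrays or splitting by slide cannot turn the signs of genes whose groups do not overlap, so the signs say nothing of stability there. With other values, 7 of the 10 genes had opposite signs against Empty with the normexp correction, 9 in the deposited value table and 9 with the mean over probes, and Ypel2 and Ccnb1ip1 were not measured when detection on all 8 arrays was required. The difference of Ebf1wt from Empty changed sign to 0.10 for Ypel2, 0.00092 for Ccnb1ip1 and 0.0056 for Lpcat2 with the normexp correction, to 0.063 for Ypel2 in the value table, and to 0.15 for Gpr146 with the mean over probes, where its dim probe enters. Of the other 589 values of the 10 genes under alternatives, 505 moved by less than the spread between replicates and 84 by more. Many of the 505 could not move, so this count is no measure of stability. Keeping outlier spots or dropping the filter on dim probes repeated the values reported. Leaving out an array of a group outside a comparison left that difference unchanged. The count of genes called in opposite directions, 19, was 4 with the normexp correction, 4 in the value table, 7 with no filter on dim probes, and 0 and 0 within slides 1 and 2, where 4 arrays enter each fit; without 1 array it ranged from 5 to 23, with 4 to 8 of the 10 genes among them. The number called with Ebf1-H240A against Ebf1wt, 1039, was 641 in the value table, 338 with no filter, 647 with slide as a block, 0 and 0 within slides 1 and 2 by limma (1525 and 1603 at an unadjusted p under 0.05), and 366 to 841 without 1 array. For Ebf1wt against Empty, 6268, it was 133 and 398 within the slides and 4193 to 6029 without 1 array, and for Ebf1-H240A against Empty, 7276, it was 1091 and 321 within the slides and 5426 to 7377 without 1 array. Outside the slides and the smaller sets of arrays, where fewer samples enter, the cause was not tested. Signal over background limits Ypel2 and Ccnb1ip1, which were not well above it on all arrays.

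Deviations of arrays of different groups with the same replicate number correlated at r = -0.33 to 0.19 over 7 pairs, 2 of them over 0.1. For unlike numbers r was -0.45 to 0.42 over 14 pairs. The deviations of the Empty arrays mirror each other, so these values are not independent. They cannot decide whether the numbers pair the samples. With the replicate block, 9 genes were called in opposite directions, 5 of them among the 10, and 360 with Ebf1-H240A against Ebf1wt.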
